A study of Mus musculus with 12 samples.

Results

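The GABA-A receptor is a chloride channel built of 5 subunits around a pore, and it carries most of the fast inhibition in the brain. Receptors with a gamma subunit sit mainly at synapses, whereas receptors with a delta subunit lie outside synapses, often partnered with the alpha 4 subunit in forebrain and thalamus, and carry a steady (tonic) inhibition. Alcohol, neurosteroids and many sedatives act on these receptors, and alpha 2 and alpha 3 are common alpha subunits of the hypothalamus. The genes described here are 4 alpha subunits (Gabra2, Gabra3, Gabra4 and Gabra5), 2 beta subunits (Gabrb1 and Gabrb2) and the delta subunit (Gabrd), each taken as all non-control probes that carry its name on the array. This gave 13 of the 41174 probes. Of these, 12 had enough measured spots to be tested, and all 12 were well above background on 12 of 12 arrays. The remaining one, a Gabrb2 probe on chromosome 11 (mm9, 42344720 to 42344779), was well above background on 0 arrays.

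RNA came from hypothalami of male ICR mice, an outbred strain, which were 3 weeks old at the start. Mice of the water group had water in both drinking tubes, whereas mice of the alcohol groups could choose between water and a 5% or 10% alcohol solution, so that the dose was the animal's own and the concentration of a given pool is not in the labels. Drinking began after an adaptation that ended on day 5 and ran to day 51 or day 57, on which the sample labels and the series description differ. The labels place 3 pools each in water, low alcohol drinkers, early high alcohol drinkers and late high alcohol drinkers, and each pool mixed the RNA of 1 to 3 mice (3 in every water pool), so that the spread between arrays is a spread between pools.

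The 12 arrays were on 3 slides, 4 on each. Water shared slide 1 with low drinker pool 1. On slide 2 were the other 2 low drinker pools and early high drinker pools 1 and 2, while early high drinker pool 3 was on slide 3 together with all late high drinkers. Slides 2 and 3 thus had no water pool, and by the file headers they were scanned on a different day from slide 1. Scan day therefore also separated the water pools from every alcohol pool but low drinker pool 1. Values are log2 of the background-corrected signal minus the 75th percentile of the array, called log2 scaled signal, in which 1 unit is a doubling and which does not allow one probe's level to be set against another's. The tissue carried hypothalamic transcripts throughout, with 9 of 10 measured hypothalamus markers (among them Pmch, Hcrt, Avp and Oxt) well above background on all arrays.

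The results turn on 6 of these probes, each 60 bases long, and the first 30 bases of each are given 5′ to 3′ to show which stretch of the transcript was read. Both Gabra2 probes and 2 of the 3 tested Gabrb2 probes are shown because probes of the same gene gave different patterns. The number after the gene is the first base of the probe in the transcript of the array design, and no base is marked by capitals.
Gabrd, base 1745: aggccttttctctgtgggatcaggatcaga
Gabra4, base 2413: ttggagcaagagaaatagagctaggagaga
Gabra2, base 1835: acaggcagaaaacatcccgtgccaaaagag
Gabra2, base 3634: aaccttcctcacgaaaatcaaaagtaatcc
Gabrb2, base 5476: cagttcctaagaacattgcacagtttgact
Gabrb2, base 7240: cttgtagcctttctgaacacacacatcatg
In mm9 the Gabrd probe lies on the minus strand of chromosome 4 (154759071 to 154759089, a span of 19 bases as the array file gives it). The Gabra4 probe lies on the minus strand of chromosome 5 (71962623 to 71962682). The Gabra2 probes lie on the same strand of that chromosome (71352793 to 71352852, and 71350832 to 71350891), 1961 bases apart. The Gabrb2 probes lie on the plus strand of chromosome 11 (42444018 to 42444077, and 42445782 to 42445841), 1764 bases apart. Gabra2, Gabra4 and Gabrb1 belong to a subunit gene cluster, and their probes fell within 1.175 Mb of chromosome 5. The array files give no exon or UTR for a probe.

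Gabrd differed among pools far more than any other member, and Gabra4, whose product is its partner in the extrasynaptic receptor, varied with it in a narrower range, whereas the groups overlapped. The Gabrd log2 scaled signal was -0.74, -1.02 and -1.26 in water pools 1 to 3. It was -2.39, -0.05 and 0.36 in the low drinkers, -1.53, -2.53 and -0.06 in the early high drinkers, and -0.82, -1.12 and 0.91 in the late high drinkers. Early high drinker pool 2 was lowest and late high drinker pool 3 highest, a span of 10.9-fold, and each alcohol group held pools both above and below all 3 water pools, except that none of the late high drinkers was below them. The standard deviation of Gabrd over the 12 arrays was 1.03, larger than that of 99.9% of the 26104 tested probes that were well above background on all arrays.

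The order of the pools was similar for Gabra4. Its log2 scaled signal was 1.83, 1.62 and 1.63 in the water pools and 1.39, 2.05 and 2.07 in the low drinkers. It was 1.47, 1.48 and 1.99 in the early high drinkers, and 1.78, 1.80 and 2.42 in the late high drinkers. The pools that were lowest for Gabrd (low 1, early high 1 and 2) were also the 3 lowest for Gabra4, and late high drinker pool 3 was highest for both. The standard deviation of Gabra4 was 0.30, above that of 87.3% of those probes, against 0.07 to 0.22 for the brightest probes of the other members apart from Gabrd.

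**Figure D1:**
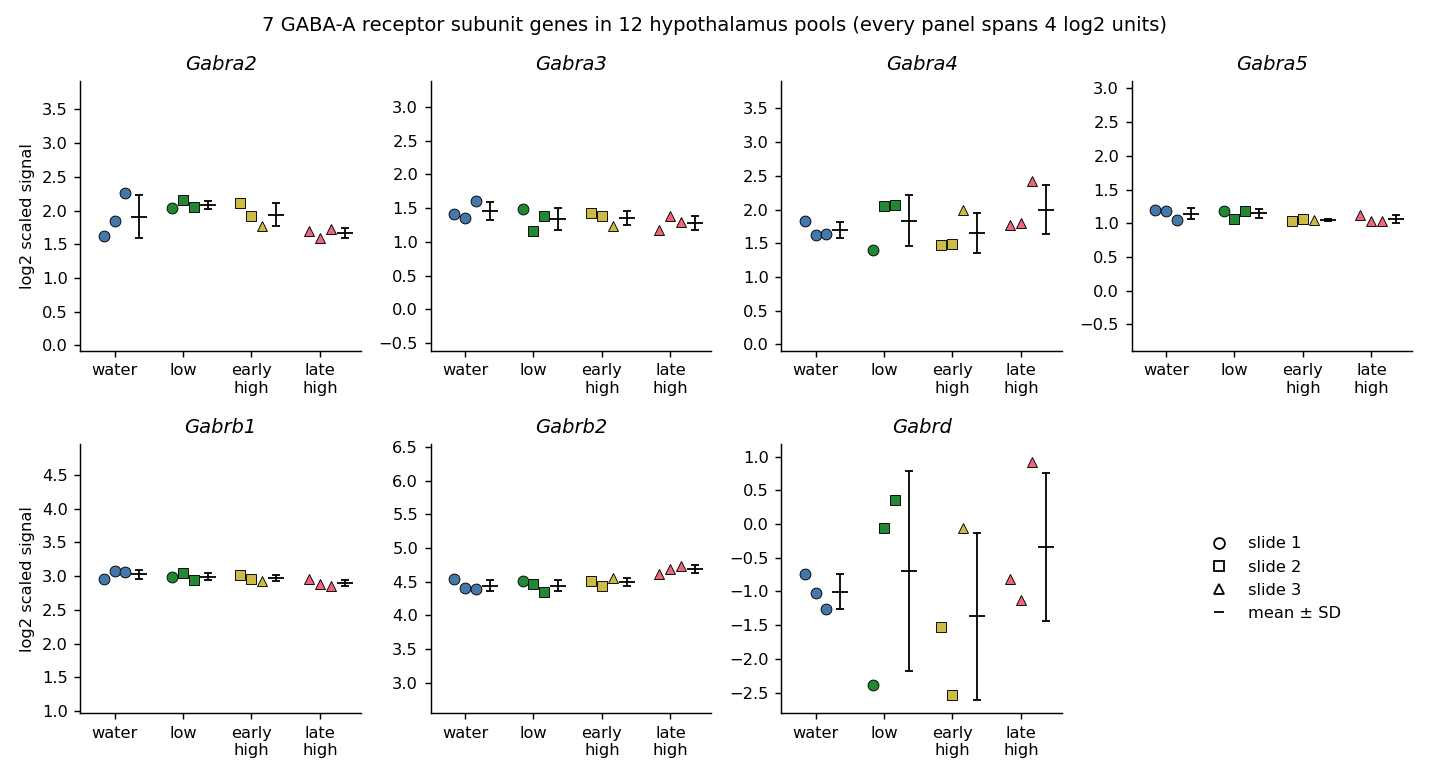
Log2 scaled signal (vertical axis) of the brightest probe of each gene in the 12 pools by group, with the symbol showing the slide and the bar the mean ± SD of 3 pools; every panel spans the same 4 log2 units. Gabrd spread from -2.53 to 0.91 with overlapping groups, Gabra4 from 1.39 to 2.42 and Gabra2 from 1.59 to 2.25, and the remaining 4 genes spanned 0.16 to 0.45 units.

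Over the 12 arrays Gabra4 and Gabrd had a Pearson r of 0.95 (permutation test with 100000 resamples, p = 1e-05, the smallest it can give, adjusted p = 0.00021 over 21 pairs) and a Spearman coefficient of 0.94 (permutation p = 4e-05, adjusted p = 0.00084). Without low drinker pool 1 and late high drinker pool 3, the arrays farthest from the median of Gabra4, r was 0.92. With the mean of each slide removed r was 0.94, and within slides 1, 2 and 3, of 4 arrays each, it was 0.94, 0.94 and 0.97.

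The marker list of the thalamus, the region above the hypothalamus where the delta and alpha 4 subunits are abundant, moved with both genes. All 7 of its markers were measured and well above background on 12 of 12 arrays. The mean of the 7 had an r of 0.99 with Gabrd and 0.97 with Gabra4 (permutation p = 1e-05 for each, the smallest it can give; adjusted p = 0.000385 over 77 relations of members with marker lists). The Spearman coefficients were 0.99 and 0.92. With slide means removed r was 0.99 and 0.96, and without the 2 arrays farthest from the median of the list it was 0.98 and 0.96. The other 5 members had r values of -0.54 to 0.29 with that list, and none of the remaining 75 relations passed an adjusted p of 0.05. The members and lists were chosen with earlier results of these data known. The p values of these relations, and of Gabra4 with Gabrd, are therefore descriptive. Over the lists of cortex and hippocampus, striatum, pituitary, choroid plexus, white matter, neurons, astrocytes, microglia and blood, the highest value was that of Gabra2 with the striatum list (r = 0.78, permutation adjusted p = 0.0988), which was 0.47 with slide means removed. Of the 5 pituitary markers, 3 were well above background on all arrays. All 5 pituitary markers were lower in high than in low drinkers at an unadjusted p under 0.05, where 11.8% of all tested probes were lower, and 0 of 5 passed the adjustment by limma. At that unadjusted level 3 of 5 were lower without scaling between arrays, 3 with median centring and 1 with quantile normalization. In late against early high drinkers 2 of 5 were higher at that level, where 4.28% of all tested probes were.

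By pool, the mean of the thalamus list ran from -0.05 to 0.16 in water, -0.59 to 0.86 in low drinkers, -0.65 to 0.74 in early high drinkers and 0.09 to 1.22 in late high drinkers. Its summed signal, relative to the 75th percentile of the array, was 9.0 to 10.6 in water, 6.90 to 15.9 in low drinkers, 6.29 to 16.1 in early high drinkers and 11.2 to 22.3 in late high drinkers. For single markers, r with Gabrd was 0.99 for Ramp3, a receptor activity-modifying protein, 0.97 for the kinase gene Prkcd and for Tnnt1, a slow muscle troponin that marks thalamic relay neurons, and 0.79 to 0.92 for Plekhg1, Lef1, Tcf7l2 and Rgs16. The part of thalamic tissue in the spread of Gabrd and Gabra4 was not tested, and in bulk tissue fewer cells of a type and less RNA per cell cannot be told apart. The mean of the hypothalamus list lay between 1.90 and 2.20 on the same scale in all 12 pools. Its r was -0.57 with Gabrd and -0.48 with Gabra4 (permutation adjusted p = 0.494 and 0.719), and -0.69 and -0.64 with slide means removed.

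**Figure D2:**
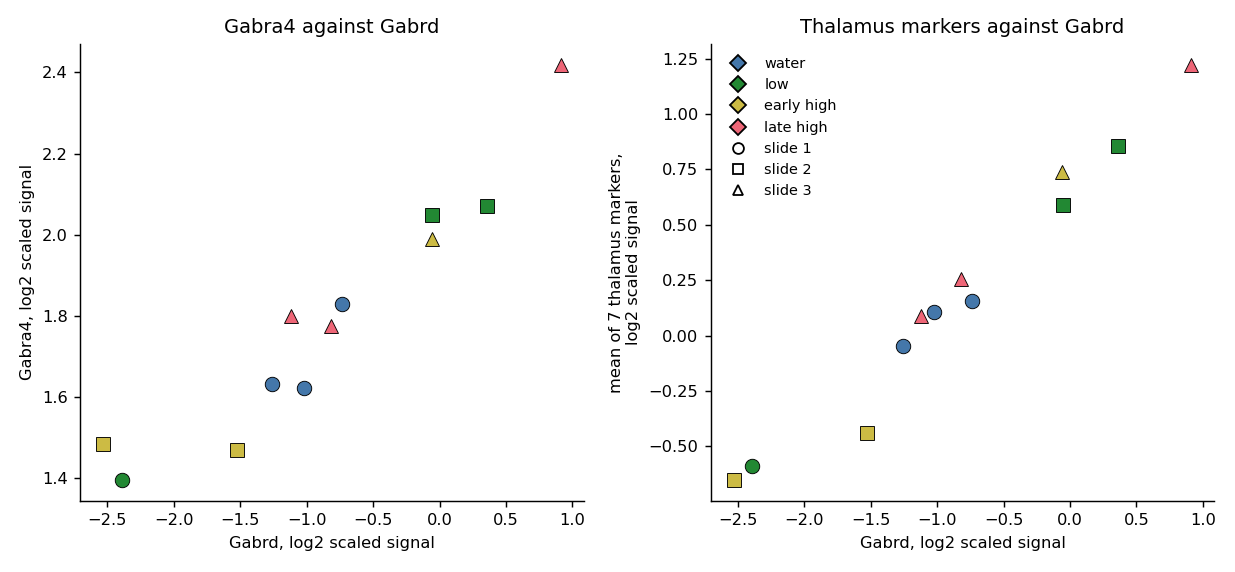
Gabra4 (left) and the mean of 7 thalamus markers (right) against Gabrd, all in log2 scaled signal, with 1 point for each of the 12 pools, colored by group and shaped by slide. Both rose along Gabrd, with r values of 0.95 and 0.99, and the groups overlapped along it.

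For neither gene did a difference between the labeled groups pass the adjustment. Alcohol minus water was 0.20 for Gabrd (95% interval -1.26 to 1.66, adjusted p = 0.959, limma) and 0.13 for Gabra4 (-0.29 to 0.56, adjusted p = 0.892). The exact permutation test over all 220 ways to choose 3 of 12 arrays gave two-sided p values of 0.80 and 0.545. High minus low drinkers was -0.16 for Gabrd (-1.77 to 1.45, adjusted p = 0.932, limma) and -0.02 for Gabra4 (-0.47 to 0.44, adjusted p = 0.98). Late minus early high drinkers was 1.03 for Gabrd (-0.83 to 2.89, adjusted p = 0.644) and 0.35 for Gabra4 (adjusted p = 0.568), and all 3 intervals of Gabrd reached past 1 unit. The late minus early values moved with single pools. That of Gabrd was 0.40 without late high drinker pool 3, 0.45 without early high drinker pool 2 and 1.69 without early high drinker pool 3, and that of Gabra4 was 0.14 without late high drinker pool 3 and 0.52 without early high drinker pool 3. With each pool left out in turn, alcohol minus water ran from -0.01 to 0.42 for Gabrd and from 0.06 to 0.20 for Gabra4. High minus low drinkers ran from -1.01 to 0.37 for Gabrd and from -0.24 to 0.10 for Gabra4, so both turned sign. With slide as a fixed block, high minus low drinkers was -2.32 for Gabrd (unadjusted p = 0.013, adjusted p = 0.215, limma) and -0.58 for Gabra4 (unadjusted p = 0.0378, adjusted p = 0.311). Within slide 2 the early high drinkers were 2.18 lower than the low drinkers for Gabrd and 0.58 lower for Gabra4, from 2 pools a side. Within slide 1 low drinker pool 1 was 1.39 below the mean of the 3 water pools for Gabrd. Within slide 3 the mean of the 3 late high drinker pools minus the single early high drinker pool was -0.28 for Gabrd, the opposite sign to the difference over all slides, and 0.01 for Gabra4.

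Gabrb2, a beta subunit common in synaptic receptors with alpha 1, was the member with the lowest p value among the groups, through its brightest probe at base 5476. The log2 scaled signal of this probe was 4.53, 4.41 and 4.39 in the water pools, 4.51, 4.46 and 4.36 in the low drinkers, 4.51, 4.44 and 4.55 in the early high drinkers, and 4.62, 4.69 and 4.74 in the late high drinkers. The 3 late high drinker pools lay above all 9 other pools, whose ranges overlapped. The late pools also shared slide 3, on which the single early high drinker pool had 4.55, and the late mean was 0.13 above it.

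For that probe late minus early high drinkers was 0.18 (standard error 0.07, unadjusted p = 0.0205, adjusted p = 0.346, limma), a 1.14-fold difference. High minus low drinkers was 0.15 (standard error 0.06, unadjusted p = 0.0286, adjusted p = 0.283), with 5 of 6 high drinker pools above the low mean. The test for any difference among the 4 groups gave an unadjusted p = 0.0148 and an adjusted p = 0.235. None of these passed after adjustment. The exact permutation test gave p = 0.10 for late against early, which is the smallest that 3 against 3 allows, and p = 0.119 for high against low, both two-sided. With slide as a fixed block, late minus early high drinkers was 0.13 (unadjusted p = 0.214, adjusted p = 0.937, limma) and high minus low was 0.13 (unadjusted p = 0.22, adjusted p = 0.60), so that neither kept an unadjusted p under 0.05.

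The other 2 measured Gabrb2 probes did not follow the brightest one. The probe at base 7240 was 3.67, 3.69 and 3.68 in water, 3.62, 3.81 and 3.89 in low drinkers, 3.68, 3.69 and 3.71 in early high drinkers, and 3.48, 3.55 and 3.74 in late high drinkers. Here the late mean was the lowest, with late minus early of -0.11 (standard error 0.08, adjusted p = 0.627, limma), and r with the brightest probe was -0.51 over 12 arrays. The probe at base 3652 (chromosome 11, 42442194 to 42442253) ran from -0.77 to -0.26, with late minus early of -0.07 (adjusted p = 0.841) and an r of -0.11 with the brightest probe. Late high drinkers were thus above all others with 1 of 3 probes, and the mean over the probes gave high minus low drinkers of -0.02.

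Gabra2, a synaptic alpha subunit whose human gene is known from genetic studies of alcohol dependence, showed a similar disagreement. The log2 scaled signal of its brightest probe, at base 1835, was 1.63, 1.85 and 2.25 in water, 2.04, 2.15 and 2.05 in low drinkers, 2.11, 1.93 and 1.77 in early high drinkers, and 1.69, 1.59 and 1.73 in late high drinkers. The late pools lay below every early and low drinker pool, whereas the water pools ran from 1.63 to 2.25 and overlapped every other group. High minus low drinkers was -0.28 (standard error 0.12, unadjusted p = 0.0503, adjusted p = 0.331, limma, and exact permutation p = 0.0714, two-sided), and late minus early was -0.26 (standard error 0.14, unadjusted p = 0.0971, adjusted p = 0.483, limma). The late pools shared slide 3 with early high drinker pool 3, and within that slide late minus early was -0.10.

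The second Gabra2 probe, at base 3634, ran the other way. It had 0.95, 0.82 and 0.72 in water, 0.81, 0.84 and 0.79 in low drinkers, 0.96, 1.01 and 0.73 in early high drinkers, and 1.04, 1.00 and 0.98 in late high drinkers. High minus low drinkers was 0.14 (standard error 0.07, unadjusted p = 0.0775, adjusted p = 0.373) and its r with the brightest probe was -0.56. Water pool 1, lowest of the water pools for one probe, was highest for the other.

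**Figure D3:**
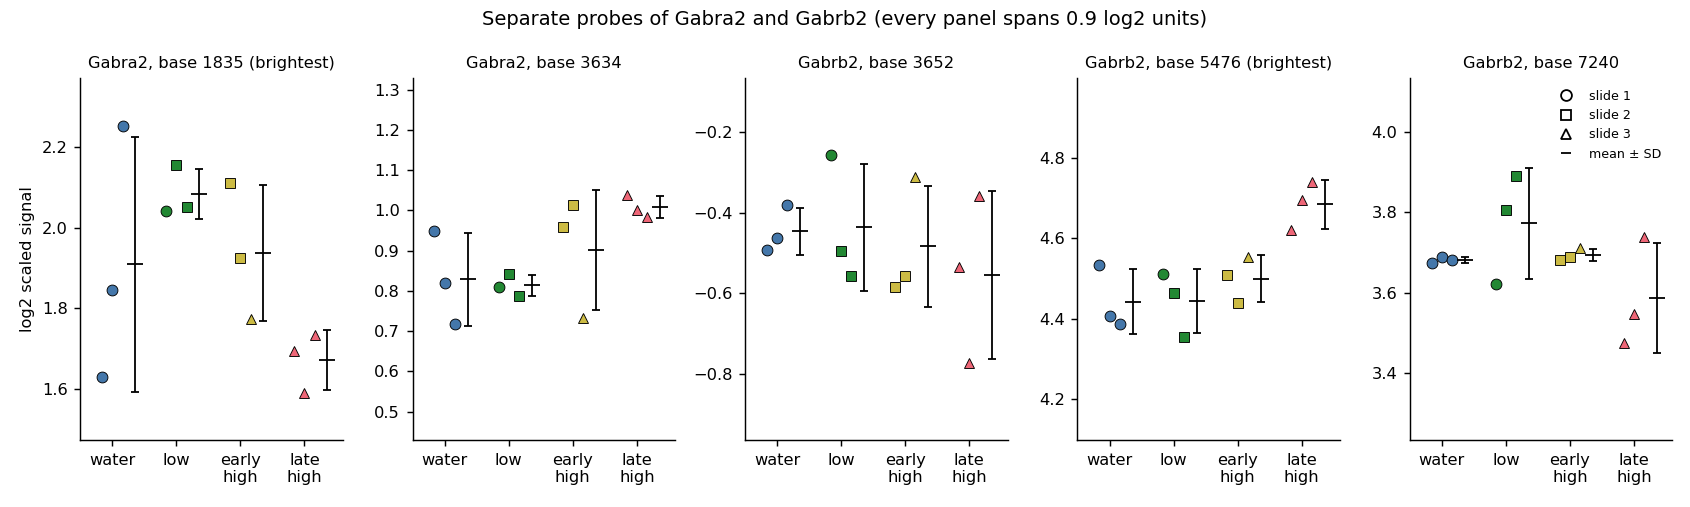
Log2 scaled signal of each tested probe of Gabra2 and Gabrb2 by group, ordered by position in the transcript, with the symbol showing the slide and the bar the mean ± SD of 3 pools; every panel spans 0.9 log2 units. The mean of the late high drinkers was the lowest for Gabra2 at base 1835 and the highest at base 3634, with single pools of other groups among them, and the late pools lay above all others for Gabrb2 at base 5476 alone.

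The 4 group means of the brightest probe spanned 0.13 log2 units for Gabrb1, 0.17 for Gabra3 and 0.10 for Gabra5. Gabrb1, the beta subunit of the same chromosome 5 cluster (single probe, chromosome 5, 72528086 to 72528145), had 3.03 ± 0.06 in water, 2.99 ± 0.05 in low, 2.97 ± 0.05 in early high and 2.90 ± 0.05 in late high drinkers (SD, n = 3 pools each). Neighboring groups overlapped in this order. Gabra3, on the X chromosome and typical of receptors of monoaminergic and hypothalamic neurons, had 1.45 ± 0.14, 1.34 ± 0.16, 1.35 ± 0.10 and 1.29 ± 0.10 in the same order (brightest probe, chromosome X, 69679157 to 69679216). Of the 9 alcohol pools, 1 lay above the water mean for Gabra3 and 1 for Gabrb1, with alcohol minus water of -0.13 (95% interval -0.31 to 0.04) and -0.08 (-0.18 to 0.03). Without water pool 3 the value of Gabra3 was -0.05.

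Gabra5, an alpha subunit of extrasynaptic receptors best known from the hippocampus, had 1.14 ± 0.08 in water, 1.15 ± 0.07 in low, 1.05 ± 0.01 in early high and 1.07 ± 0.05 in late high drinkers (brightest probe, chromosome 7, 64663486 to 64663545). High minus low drinkers was -0.09 (standard error 0.05, adjusted p = 0.431, limma), and 0 of 6 high drinker pools lay above the low mean (exact permutation p = 0.0476 unadjusted, two-sided). This difference was 0.04 without scaling between arrays and 0.04 with median centring, whereas it stayed negative with quantile normalization. Its sign thus depends on which scaling is used. The standard deviation of this probe over 12 arrays, 0.07, was above that of only 9.99% of the probes well above background on all arrays.

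The further probes of Gabra3 and Gabra5 read transcript stretches nearer the start. That of Gabra3 at base 577 (chromosome X, 69746547 to 69746606) ran from -3.55 to -2.87, and its r with the brightest probe was 0.12. That of Gabra5 at base 554 (chromosome 7, 64744503 to 64744562) ran from -0.61 to 0.21, with an r of -0.36. This second Gabra5 probe had a standard deviation of 0.25 over the 12 arrays, above that of 82.3% of the probes well above background on all arrays. As with Gabra2 and Gabrb2, the separate probes of these genes did not order the pools alike. In no gene with more than 1 probe did any pair of probes have an r above 0.18.

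Across the 3 comparisons, 0 of 7 members passed an adjusted p of 0.05. For alcohol against water, 0 of 7 members had an unadjusted p under 0.05, where 5.53% of the 32376 tested probes did and 0% passed the adjustment. For high against low drinkers 1 of 7 (Gabrb2) had an unadjusted p under 0.05, where 15.1% of the tested probes did and 0.294% passed the adjustment. For late against early high drinkers 1 of 7 (Gabrb2 again) did, where 12.3% of the tested probes did and 0% passed the adjustment, and over any difference among the 4 groups 1 of 7 did, where the shares were 14.8% and 0.158%. The late arrays lay above every early array for 1 of 7 members (Gabrb2), as for 8.28% of the probes, and below every early array for 1 of 7 (Gabra2), as for 13.2%.

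The median change of the 7 members was -0.01 for alcohol against water, -0.05 for high against low and 0.02 for late against early high drinkers, beside medians of 0.03, -0.05 and -0.03 over all tested probes. Without scaling between arrays the medians over all probes were 0.03, 0.07 and 0.12, and with median centring -0.03, 0.08 and 0.05, so that small changes of either sign depend on the scaling. For high against low drinkers this turned the sign of Gabra3, Gabra4, Gabra5 and Gabrb1, and for late against early that of Gabra3 and Gabrb1. Gabra2, Gabrb2 and Gabrd kept their signs in these comparisons without scaling and with median centring. The p values measure the spread between pools, and slide and group are largely confounded.

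**Figure D4:**
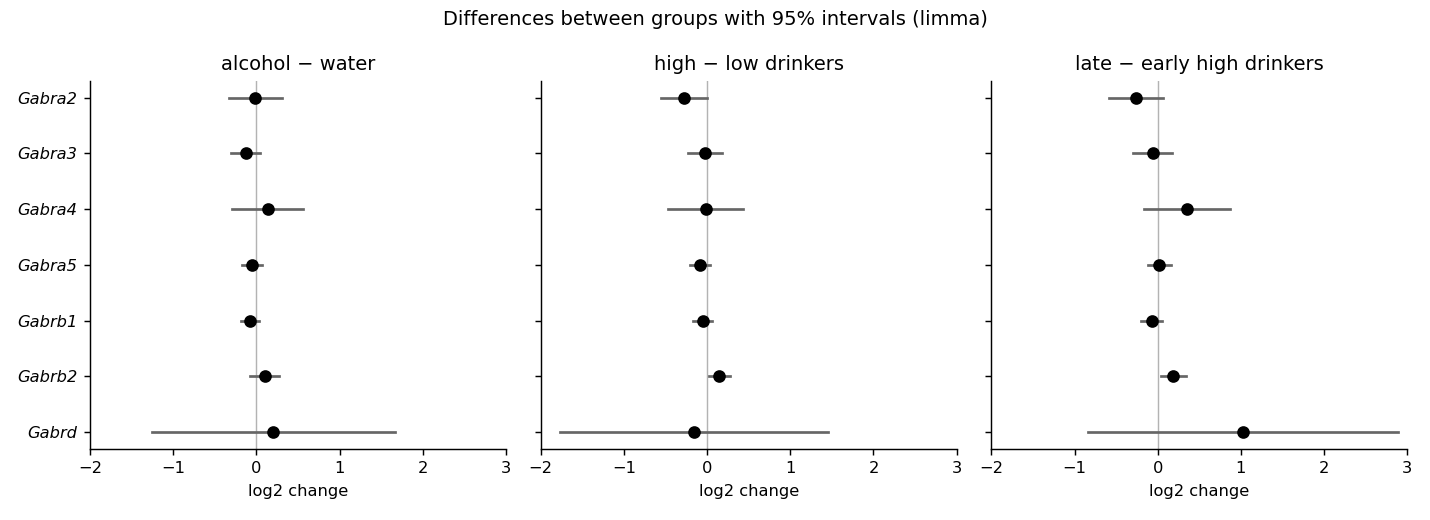
Difference in log2 scaled signal (horizontal axis) of the brightest probe of each member for alcohol minus water, high minus low drinkers and late minus early high drinkers, with points at the limma estimate and lines over the 95% interval. The intervals of Gabrd were the widest, up to -0.83 to 2.89 for late minus early, and those of Gabrb1 and Gabra5 the narrowest.

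Between the other members, no pair passed the adjustment over 21 pairs. Gabra2 and Gabrb1 had an r of 0.69 (permutation p = 0.0144, adjusted p = 0.0756; Spearman 0.66, p = 0.0211), which was 0.51 without water pool 3 and late high drinker pool 2, the farthest arrays for Gabra2. Gabra2 and Gabrb2 had an r of -0.71 (p = 0.0105, adjusted p = 0.0735; Spearman -0.75, p = 0.00695; permutation tests). Gabrb1 and Gabrb2 had an r of -0.74 (permutation p = 0.00697, adjusted p = 0.0732; Spearman -0.67, p = 0.0209). With slide means removed these were 0.51, -0.34 and -0.41. Without scaling between arrays the last was 0.61, of opposite sign, and without the 2 farthest arrays the latter pairs had r values of -0.56 and -0.64. Gabra4, which lies between Gabra2 and Gabrb1 on chromosome 5, had an r of -0.29 with Gabra2 and -0.55 with Gabrb1 (permutation p = 0.363 and p = 0.0636, adjusted p = 0.566 and p = 0.239). The latter was -0.28 with slide means removed and of opposite sign without scaling between arrays. The 2 Gabra2 probes themselves had an r of -0.56, so 1 probe per gene cannot tell whether this cluster varied together.

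**Figure D5:**
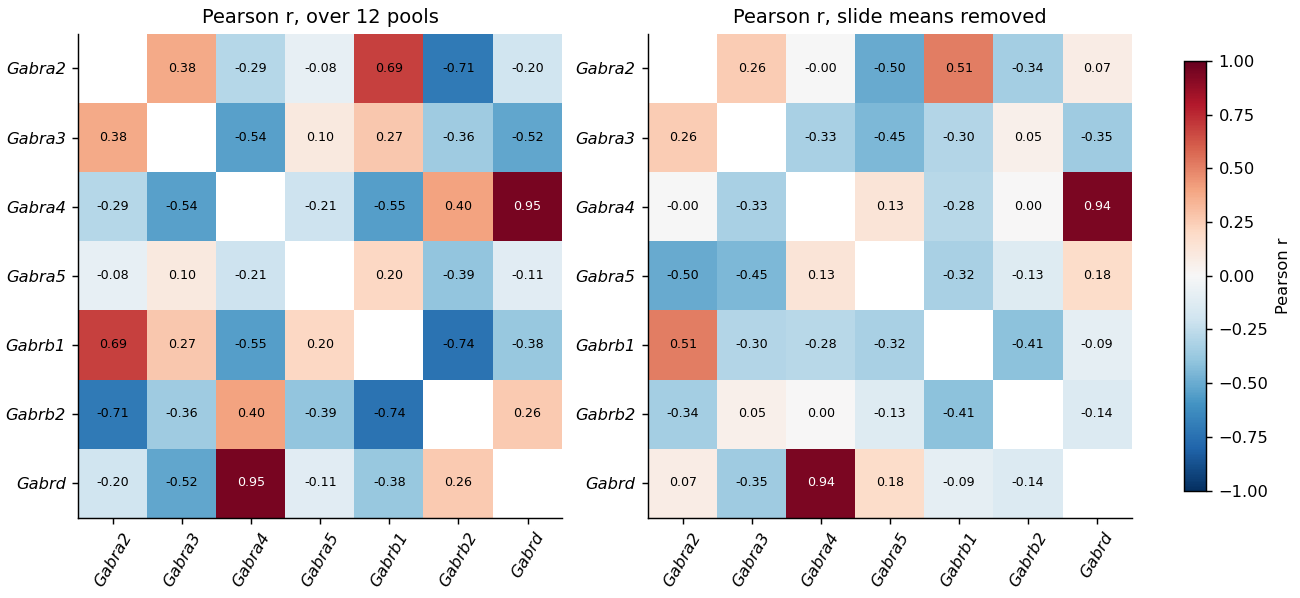
Pearson r between the brightest probes of each pair of members over the 12 pools (left) and after removing the mean of each slide (right), with red for positive and blue for negative values. Gabra4 and Gabrd stood out at 0.95 and 0.94, and the values of -0.71 and -0.74 with Gabrb2 were -0.34 and -0.41 on the right.

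Genes whose brightest probe was most like that of a member were sought among 13416 other genes well above background on all 12 arrays, and r is given as a description over 12 arrays that share slides. For Gabrd these were Ramp3 (0.99) and Synpo2, an actin-binding protein (0.98), and for Gabra4 they were Gbx2, a homeobox gene of the developing thalamus (0.98), and Rab37, a small GTPase (0.97). With slide means removed these 4 values were 0.96 to 0.99. For Gabra2 they were Gpr26, an orphan receptor (0.96), and Anxa7, an annexin (0.90), for Gabra3 Fstl5 (0.86) and the homeobox gene Meis2 (0.82), and for Gabra5 the homeobox gene Lhx5 (0.88) and Tnfaip3 (0.85). For Gabrb1 they were Plxna1, a semaphorin receptor (0.93), and Intu (0.92), and for Gabrb2 Bmpr1a, a BMP receptor (0.95), and Fbxw7, a ubiquitin ligase subunit (0.94).

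Among the other GABA-A subunits, 8 of 12 listed genes had a tested probe, and 0 passed an adjusted p of 0.05 in any comparison. Their changes ran from -0.22 to 0.14 for alcohol against water, from -0.34 to 0.10 for high against low and from -0.48 to 0.08 for late against early high drinkers. At an unadjusted p under 0.05, 1 of 8 was lower in alcohol than in water, 2 of 8 were lower in high than in low drinkers and 2 of 8 were lower in late than in early high drinkers, and 0 of 8 were higher in any of them. Over all tested probes 1.68% were lower and 3.85% higher in alcohol than in water at that level, 11.8% were lower and 3.32% higher in high than in low drinkers, and 8.06% were lower and 4.28% higher in late than in early high drinkers. This split depends on the scaling. Without scaling between arrays the shares lower and higher were 0.954% and 4.10%, 5.17% and 10.4%, and 2.74% and 13.6% in the same order, with median centring they were 2.80% and 3.28%, 5.85% and 12.1%, and 4.64% and 5.45%, and with quantile normalization 3.05% and 3.08%, 6.40% and 8.78%, and 6.18% and 5.33%. Without scaling, 0 of the 8 subunits were lower or higher in alcohol than in water, 0 were lower and 1 was higher in high than in low drinkers, and 2 were lower in late than in early high drinkers. Gabrg3, a gamma subunit, had 0.44 ± 0.04 in water and 0.22 ± 0.03, 0.22 ± 0.18 and 0.24 ± 0.19 in low, early high and late high drinkers (SD, n = 3), with alcohol minus water of -0.22 (limma adjusted p = 0.819). Gabrr1 had -2.46, -2.40, -2.49 and -2.93 in the 4 groups, and Gabre, the epsilon subunit, had -4.49, -4.35, -4.45 and -4.93. In both the late high drinkers had the lowest mean, with late minus early of -0.44 and -0.48 (limma adjusted p = 0.316 for each).

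For the enzymes and the transporter that define GABA neurons the differences were small. Gad1 and Gad2, which make GABA from glutamate, had alcohol minus water of -0.06 and -0.03 (standard error 0.06 for each), and Slc32a1, which loads GABA into vesicles, had -0.07 (standard error 0.08). The widest difference of these 3 genes in the other comparisons was -0.11, for Slc32a1 in high minus low drinkers, and none had an unadjusted p under 0.05. Among all 9 genes of GABA synthesis, loading, uptake and breakdown, 1 was higher in alcohol than in water at an unadjusted p under 0.05 (Abat, which breaks GABA down, by 0.14), 1 was lower in high than in low drinkers and 3 were lower in late than in early high drinkers. The latter were the GABA transporters Slc6a11, Slc6a12 and Slc6a13, with late minus early of -0.21, -1.43 and -0.75 and adjusted p of 0.373, 0.359 and 0.393 by limma. At that unadjusted level 3.85% of all tested probes were higher in alcohol than in water. In high against low drinkers 11.8% were lower, and in late against early high drinkers 8.06% were lower. Without scaling between arrays 1 of the 9 genes, Slc6a12, was lower in late than in early high drinkers at that level, where 2.74% of all tested probes were. In the other comparisons 0 of the 9 were then lower or higher. Slc6a11, the astrocytic transporter, was also the one lower in high than in low drinkers, with a difference of -0.20 (adjusted p = 0.264).

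Of 12 genes that anchor or carry the receptor, 2 were higher in alcohol than in water at an unadjusted p under 0.05, where 3.85% of all tested probes were. These were Nsf, the fusion ATPase that binds receptor cargo (0.18), and Plcl1, which links the receptor to phosphatases (0.21). At the same level Gabarap, which binds gamma subunits in transport, had high minus low of -0.23 and late minus early of -0.21, and Trak1, a motor adaptor, had 0.18 and 0.27. Among 5 GABA-B receptor genes Gabbr2 had high minus low of -0.37, among 4 neurosteroid genes Tspo had high minus low of -0.22 and late minus early of -0.24, and 0 of 2 chloride transporters had an unadjusted p under 0.05. Over all tested probes 11.8% were lower and 3.32% higher in high than in low drinkers at that level, and 8.06% were lower and 4.28% higher in late than in early high drinkers. In none of these lists did a gene pass an adjusted p of 0.05 by limma in any comparison, and the median changes of the lists ran from -0.28 to 0.03. Without scaling between arrays the 12 anchoring genes held 0 that were higher in alcohol than in water, 4 that were higher in high than in low drinkers (10.4% of all tested probes) and 3 that were higher in late than in early high drinkers (13.6% of all) at that unadjusted level, and 0 that were lower. The GABA-B receptor genes then held 0 that were lower and 1 that was higher in high than in low drinkers, and the neurosteroid genes held 0 that were lower or higher in any of the 3 comparisons.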

How the data were processed

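The authors deposited the scanner output of 12 single-color Agilent mouse arrays, whose signal intensity had been background-corrected by Agilent Feature Extraction (version 10.5.1.1 per the file headers) on a linear scale, and a table of the mean intensity per probe with no scaling between arrays. Probe names and positions (mm9) are those of the array files. From the log2 of each intensity the 75th percentile over its array's 43379 non-control spots was subtracted. Values were dropped for non-uniform outliers and where signal/noise fell under 2. Testing required values in 2 or more of the 3 water arrays and 5 or more of the 9 alcohol arrays, which 32376 of 41174 probes met. The 75th percentiles ran from 1512 to 1853, well above background were 67.0% to 79.3% of the spots, and 0 were saturated. The number of arrays limits the precision.

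Differences were tested in R 4.3.3 by limma 3.58.1 (lmFit, eBayes, Benjamini-Hochberg over all tested probes). Alcohol against water used 2 groups. High minus low and late minus early high drinkers were contrasts in a fit of the 4 labeled groups, which lost a few probes with too few values. Exact permutation and correlation tests used scipy 1.17.1, and figures matplotlib 3.10.9. The probe with the highest mean stood for a gene.

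The members and lists were chosen with earlier results of these data known. Named were all members, the genes of the GABA system lists with an unadjusted p under 0.05 in a comparison, Gad1, Gad2, Slc32a1, and the 2 genes most like each member. The rule also named all other GABA-A subunits, which are given as counts and ranges unless they had such a p. Marker lists covered hypothalamus, thalamus, cortex and hippocampus, striatum, pituitary, choroid plexus, white matter, neurons, astrocytes, microglia and blood. Alternatives covered scaling, background correction, filters, the authors' table, slide and replicate blocks, other tests, the choice of probe and each array left out.

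On simulated data with 200 of 32376 probes moved by 1 log2 unit, 163 were recovered for alcohol against water, 145 for high against low and 156 for late against early. The false calls were 12, 8 and 8. The simulated noise was independent between arrays and held no slide effect. These counts thus do not cover smaller changes or changes confounded with slide. Same-numbered pools of different groups did not deviate together (correlations of -0.09 to 0.18), so the numbers were not taken as pairs. The PCR and behavioral data were not used here.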

Additional observations from a re-analysis of the deposited data

How the results depend on the processing

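Of the 27 settings per member and comparison, none brought a member past an adjusted p of 0.05, and the 4 counts of members past that level were 0 throughout (the counts at an unadjusted p of 0.05 follow). The replicate block, which pairs pools by number although the numbers did not pair them, left these counts at 0, 1, 1 and 1, with Gabrb2 at 0.15 for high against low (unadjusted p = 0.0474) and 0.18 for late against early (unadjusted p = 0.036). Over the array that block gave 1751 of 32376, 4961 of 32335, 3780 of 32373 and 4540 of 32335 probes at the unadjusted level. At an unadjusted p of 0.05, high against low gave 2 members with only probes well above background on all arrays, with slide as a fixed block and with the methods' t-test, and 0 with the mean over probes of a gene. Over the array these settings gave 3841 of 26104, 4663 of 32335 and 2963 of 31779 probes, and 3191 of 21463 genes. Late against early gave 0 members with slide as a fixed block, 2 with the 6 arrays compared alone and 0 with the mean over probes, and the 4 groups gave 0 with the mean over probes. For late against early the array gave 1751 of 32373 and 4692 of 32373 probes, and 2432 of 21483 genes. Over the 4 groups it gave 2958 of 21463 genes. Leaving out each array moved each of these 3 counts of members between 0 and 2. The count was 0 without low drinker pools 2 or 3, early high drinker pool 3 or late high drinker pool 3 for high against low, without early high drinker pool 2 or late high drinker pool 3 for late against early, and without late high drinker pools 2 or 3 over the 4 groups. It was 2 without water pools 1 or 3 or early high drinker pool 1 for high against low, without water pool 3 for late against early, and without water pools 1 or 3 over the 4 groups. With arrays left out, the array gave from 3023 of 31987 to 8205 of 32040 probes for high against low. For late against early it gave from 2375 of 32337 to 4828 of 32299, and over the 4 groups from 2956 of 32101 to 8289 of 32040. The following changes turned sign, and the cause was not tested. For alcohol against water with slide as a fixed block, which sets low drinker pool 1 alone against water, Gabra2 was 0.13, Gabra3 0.026, Gabra4 -0.30, Gabra5 0.047 and Gabrd -1.39. With slide as a random block Gabra2 was 0.022 and Gabrd -0.17, and with the mean over probes Gabra2 was 0.033 and Gabra5 0.067. For high against low without scaling Gabra3 was 0.11, Gabra4 0.11, Gabra5 0.038 and Gabrb1 0.074, with median centring they were 0.11, 0.12, 0.045 and 0.081, with slide as a fixed block Gabra3 was 0.17, and with the mean over probes Gabrb2 was -0.022. In that comparison, with slide as a fixed block, Gabrd was -2.32 and Gabra4 -0.58 (unadjusted p = 0.013 and 0.0378, adjusted p = 0.215 and 0.311), each in the same direction as without it. For late against early, Gabra3 was 0.093 without scaling, 0.015 with median centring and 0.057 with slide as a fixed block, Gabra5 was -0.020 with normexp and -0.13 with the mean over probes, Gabrb1 was 0.082 without scaling and 0.0039 with median centring, and Gabrd was -0.28 with slide as a fixed block. Leaving out each array in turn gave ranges that crossed 0 for alcohol against water of Gabra2 (-0.15 to 0.16) and Gabrd (-0.012 to 0.42), for high against low of Gabra3 (-0.11 to 0.049), Gabra4 (-0.24 to 0.10) and Gabrd (-1.01 to 0.37), and for late against early of Gabra5 (-0.015 to 0.034). Without scaling the correlation of Gabrb1 and Gabrb2 was 0.61 and that of Gabra4 and Gabrb1 was 0.18, both of opposite sign. The correlation of Gabra4 and Gabrd kept its sign and passed the adjustment without scaling, with quantile normalization, with normexp and with slide means removed.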
